A study of Mus musculus with 4 samples.

Results

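Pkd1, Pkd2, Pkhd1, Ganab, Prkcsh, Dnajb11 and Sec63, the mouse counterparts of human genes mutated in inherited cystic disease of kidney or liver, were followed through 2 lists of H3K36me3 peaks. The 7 genes were chosen by name, out of 21911 protein-coding genes in the annotation, and peaks were assigned to a gene by an overlap of 1 bp or more with the span between its annotated ends (GENCODE M21, GRCm38). The lists came from chromatin immunoprecipitation and sequencing (ChIP-seq) of primary tubular epithelial cells (PTECs) isolated from the kidney cortex of C57BL/6 mice. Setd2-KO PTECs carried SETD2fl/fl with KspCre/+, Cre recombinase under the kidney-specific cadherin promoter, and control PTECs carried SETD2fl/fl without Cre. For either genotype 1 ChIP and 1 input library were sequenced, 4 in all, and the peaks of a ChIP library were called against its own input. The labels give neither the age of the mice nor the number of animals behind a library, and which exons were floxed and how many cells recombined is not stated in the sources used here. The reporting summary of the study speaks in 1 place of ChIP on cystic and neoplastic kidney tissue from mice that overexpress MYC, with 1 animal for each tissue, and gives an adult age for the mice of its omics assays in general. For genotype and cell type the sample labels were followed instead. With 1 library per genotype there was no replicate, so each difference compares these 2 libraries, no test was made, and the 95% intervals cover counting error only.

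H3K36me3 is the trimethyl mark that SETD2 places on nucleosomes behind elongating RNA polymerase II, so it lies over the bodies of transcribed genes and is usually denser toward their ends. Pkd1 and Pkd2 encode the polycystins, a large receptor-like protein and a cation channel that act together in the primary cilium of tubule cells, and their loss causes dominant polycystic kidney disease in humans. Pkhd1 encodes fibrocystin, the ciliary membrane protein of the recessive form. Ganab and Prkcsh encode the catalytic and the regulatory subunit of glucosidase II, which trims glucose from N-glycans in the endoplasmic reticulum (ER), Dnajb11 encodes an ER co-chaperone of BiP, and Sec63 encodes a component of the protein translocation channel. These ER genes are known in human cystic kidney or liver disease through the maturation of the polycystins.

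The 7 genes held 5 Setd2-KO peaks over 2205 bp and 32 control peaks over 12985 bp. The control list was thus 5.89-fold larger than the Setd2-KO list in these genes by bases, against 4.48-fold over the whole lists of 2732 Setd2-KO and 12242 control peaks. Without the Pkhd1 peaks in repeated sequence the 7 genes had 979 bp under Setd2-KO and 12392 bp under control peaks, a control list 12.7-fold larger. Both ratios rest on control peaks that were known when the genes were listed, so nothing is read from their distance to the whole lists. A Setd2-KO peak was called in 3 of the 7 genes (42.9%, 95% exact interval 9.90 to 81.6), namely Pkd1, Pkd2 and Pkhd1, where 7.37% of all protein-coding genes and 34.5% of the genes with a control peak carried one. All 7 carried a control peak, beside 19.5% of all protein-coding genes, and nothing is read from that count for the same reason. Peaks in both lists were therefore found in 3 genes, beside 6.73% of all protein-coding genes. The 4 ER genes Ganab, Prkcsh, Dnajb11 and Sec63 had 0 Setd2-KO peaks and 18 control peaks. A gene without a listed peak may still have carried signal under the calling limit, and that signal was not analysed here. The interval for 3 of 7 holds the 34.5% of genes with a control peak, but it is too wide to decide anything. It also treats the 7 as random draws, although they were chosen with earlier results of these data known. Most of the 7 had more bases under control peaks than the median gene with a control peak, so that share is not a like comparison. Whether the number of genes still called differs from that of marked genes in general was therefore not tested. At a fold enrichment of at least 4, Pkhd1 alone had a Setd2-KO peak, 6 genes had a control peak and 0 had both. Without the Pkhd1 peaks in repeated sequence a Setd2-KO peak was called in 2 of the 7 genes.

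**Figure D1:**
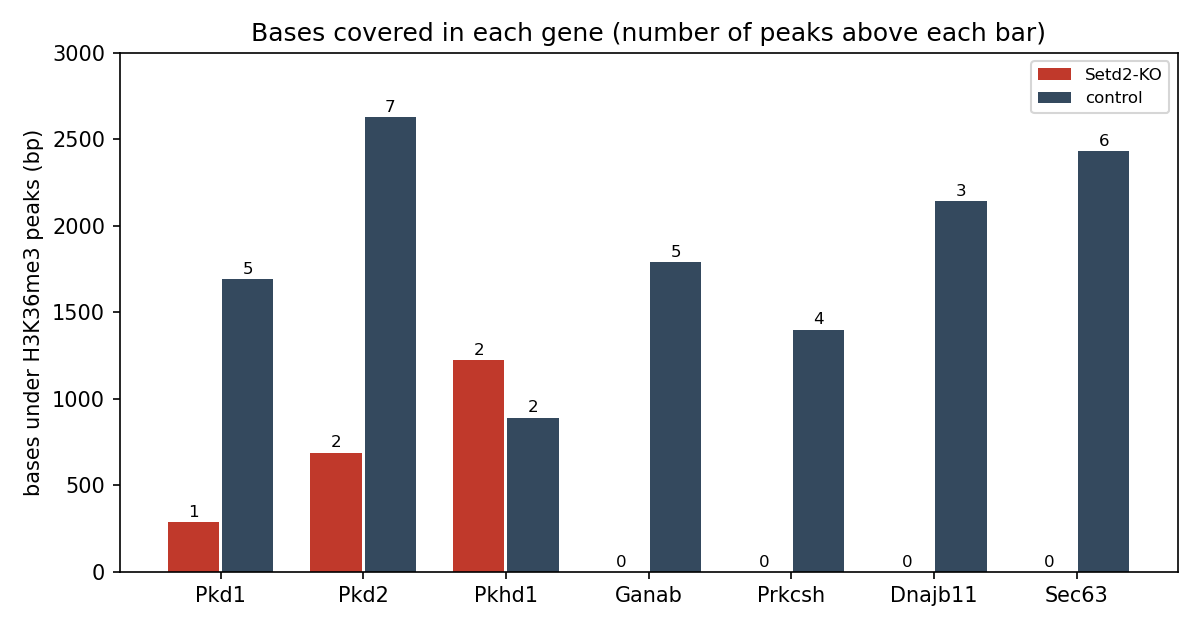
Bases under H3K36me3 peaks in each of the 7 genes, with Setd2-KO bars on the left and control bars on the right and the number of peaks above each bar. Pkhd1 is the only gene with more bases under Setd2-KO than control peaks (1226 against 892 bp), and both of its Setd2-KO peaks lie in repeated sequence.

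As a check of the libraries, Setd2 itself carried 0 Setd2-KO peaks and 5 control peaks over 3077 bp, which does not measure recombination. Of 15 proximal tubule marker genes, 5 carried a Setd2-KO and 10 a control peak, and 16 markers of later nephron segments and the collecting duct carried 0 in either list. The fibroblast and immune lists (7 genes each) had 0 genes with a peak in either genotype, and 1 of 6 endothelial genes (Kdr) and 1 of 5 podocyte genes (Podxl) had a control peak only. The genome-wide background pileup, which scales with depth, was 6.54 fragments in the Setd2-KO and 6.58 in the control library. The lowest -log10 q, the significance given to a peak by the peak caller after adjustment over the genome, was 3.08 and 3.09 in the Setd2-KO and control lists. Depth and the lowest -log10 q were therefore nearly equal, but the signal needed for a call was not. The lowest summit pileup was 23 fragments in the Setd2-KO and 21 in the control list. At a -log10 p of 9.38 a Setd2-KO peak of Pkd1 had a -log10 q of 5.65. At 9.32 a control peak of Pkd2 had 6.08, so the same -log10 q asked for a higher -log10 p in the Setd2-KO list. The level of the mark itself per cell was not measured.

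The stretches that were called in Setd2-KO PTECs are shown first, because the comparison of the 2 lists in these genes turns on them. Each line gives 201 bases of GRCm38 centred on the summit of a Setd2-KO peak, read 5′ to 3′ on the strand of the gene, with the bases that also lay under a control peak in capitals.
Pkd1 Setd2-KO peak, chr17:24585963-24586163, plus strand: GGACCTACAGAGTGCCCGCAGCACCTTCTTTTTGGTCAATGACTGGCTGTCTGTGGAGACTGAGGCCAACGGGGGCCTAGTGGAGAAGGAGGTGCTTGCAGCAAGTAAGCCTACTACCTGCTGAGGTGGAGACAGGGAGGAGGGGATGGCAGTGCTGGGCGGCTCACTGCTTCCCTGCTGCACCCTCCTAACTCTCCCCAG
Pkd2 Setd2-KO peak 1 of 2, chr5:104491022-104491222, plus strand: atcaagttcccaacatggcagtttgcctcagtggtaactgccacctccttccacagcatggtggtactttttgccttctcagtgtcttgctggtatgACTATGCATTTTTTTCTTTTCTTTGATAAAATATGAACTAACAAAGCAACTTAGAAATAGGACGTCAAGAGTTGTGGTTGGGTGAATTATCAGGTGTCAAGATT
Pkd2 Setd2-KO peak 2 of 2, chr5:104503007-104503207, plus strand: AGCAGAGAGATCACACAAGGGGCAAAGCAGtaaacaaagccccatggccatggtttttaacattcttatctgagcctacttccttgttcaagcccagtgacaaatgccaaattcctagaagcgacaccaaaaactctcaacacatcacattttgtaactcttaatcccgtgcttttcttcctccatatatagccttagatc
Pkhd1 Setd2-KO peak 1 of 2, chr1:20090591-20090791, minus strand: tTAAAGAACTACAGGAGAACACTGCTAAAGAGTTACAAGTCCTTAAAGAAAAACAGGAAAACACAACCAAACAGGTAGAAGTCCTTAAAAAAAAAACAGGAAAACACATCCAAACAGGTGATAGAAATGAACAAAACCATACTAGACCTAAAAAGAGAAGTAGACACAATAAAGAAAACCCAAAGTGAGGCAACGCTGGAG
Pkhd1 Setd2-KO peak 2 of 2, chr1:20091515-20091715, minus strand: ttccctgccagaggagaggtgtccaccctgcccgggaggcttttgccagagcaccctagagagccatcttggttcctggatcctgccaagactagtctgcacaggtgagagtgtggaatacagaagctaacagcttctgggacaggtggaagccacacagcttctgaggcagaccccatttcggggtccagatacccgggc
In Pkd1 and in the first Pkhd1 window nearly all bases were in capitals, in Pkd2 the control peak covered 104 and 30 of the bases, and in the second Pkhd1 window none.

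Pkd1 (chr17:24549834-24596508, plus strand, 46 exons) carried 1 Setd2-KO peak of 289 bp and 5 control peaks over 1694 bp, 0.619% and 3.63% of the gene. The Setd2-KO peak (chr17:24585898-24586186) touched exons 28 and 29. It lay wholly inside the control peak chr17:24585802-24586186, which reached back to exon 27, and both ended at the same base. At their summits the pileup, the number of extended fragments stacked over the base, was 27 in Setd2-KO (95% Poisson interval 17.8 to 39.3) and 28 in control PTECs (18.6 to 40.5), with overlapping intervals. The fold enrichment, the pileup divided by the local background with 1 added to each, was 3.71 in Setd2-KO and 3.83 in control PTECs. The other 4 control peaks of Pkd1 had no Setd2-KO partner.

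The strongest control peak of Pkd1 was among those not called in Setd2-KO PTECs. It spanned exons 25 and 26 (chr17:24581340-24581680) with a fold enrichment of 5.01 and a pileup of 37 (26.1 to 51.0). The others lay at chr17:24568794-24569083 (exon 10 and its intron, fold enrichment 3.17), chr17:24569808-24570159 (exon 11, 2.84) and chr17:24586407-24586732 (exon 30, 4.09), the last of them just after the shared peak. Every Pkd1 peak of either list touched an exon, and exonic bases made up 66.4% of the Setd2-KO and 59.1% of the control bases under peaks, where 37.3% of the gene is exonic. The gene Tsc2, the tuberous sclerosis gene that overlaps the end of Pkd1 by 693 bp on the other strand, carried 0 peaks in either list, and 0 peaks lay in the overlap.

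Pkd2 (chr5:104459450-104505819, plus strand, 15 exons) carried 2 Setd2-KO peaks over 690 bp and 7 control peaks over 2631 bp, the most control peaks of the 7 genes. Setd2-KO peaks covered 1.49% of the gene and control peaks 5.67%. The first Setd2-KO peak (chr5:104490876-104491243, intron 9) overlapped the control peak chr5:104491119-104491628 by 125 bp, and the second (chr5:104502851-104503172, intron 14) overlapped chr5:104502646-104503036 by 186 bp. Their summits were 377 and 393 bp away from those of the control peaks, and the first Setd2-KO summit lay inside the overlap, close to its edge, while the second lay outside it. The pileups at the first pair of summits were 27 (17.8 to 39.3) in Setd2-KO and 26 (16.98 to 38.1) in control PTECs, and at the second pair 28 (18.6 to 40.5) and 27 (17.8 to 39.3). The fold enrichment was 3.43 in Setd2-KO and 3.56 in control PTECs at the first pair, and 2.97 and 3.69 at the second. The local background under the second Setd2-KO peak was 8.76 fragments, the highest among the Setd2-KO peaks of the 7 genes, beside 6.58 under its control partner. The -log10 q of the 2 Setd2-KO peaks was 4.98 and 3.999, the lowest of the 5. With the control list cut to its 2732 peaks of highest -log10 q, an alternative added after seeing the data that left the Setd2-KO list whole, Pkd2 had 690 bp under Setd2-KO and 0 bp under control peaks. A limit of 5 on the -log10 q in both lists left 0 bp under Setd2-KO and 1916 bp under control peaks. That limit was not equally strict in the 2 lists, because the q value is adjusted within each list. The dropped Setd2-KO peak of -log10 q 4.98 had a -log10 p of 8.52. The control peak chr5:104489446-104489811, of -log10 q 5.05, was kept with a -log10 p of 8.07. A limit of 4 on the fold enrichment in both lists left 0 and 306 bp.

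The 5 Pkd2 control peaks without a Setd2-KO partner had fold enrichments of 2.79 to 4.09. Only 1 of the 7 control peaks, chr5:104498454-104498832, touched exons (11 and 12), and the other peaks lay inside introns 5, 6, 8, 9, 10 and 14. Exonic bases made up 14.4% of the bases under control peaks, beside 21.9% of the gene, and 0% of those under Setd2-KO peaks. In Pkd1 exons thus took a larger share of the bases under peaks than of the gene, and in Pkd2 a smaller one. The next gene, BC005561, starts 2532 bp after Pkd2 on the same strand and carried 3 Setd2-KO peaks over 2532 bp and 2 control peaks over 3224 bp.

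Pkhd1 (chr1:20057779-20618064, minus strand, 67 exons) was the longest of the genes at 560286 bp and the least covered, with 0.219% under Setd2-KO and 0.159% under control peaks. It held 2 Setd2-KO peaks over 1226 bp and 2 control peaks over 892 bp. It was the only one of the 3 genes with peaks in both lists that had more bases in Setd2-KO PTECs, as 7.93% of all such genes had. Both Setd2-KO peaks lay in intron 63, chr1:20090489-20090788 with a fold enrichment of 4.34 and chr1:20090891-20091816 with 3.72, at 94.1% and 94.0% of the gene length from the start. The pileups were 35 (24.4 to 48.7) and 31 (21.1 to 44.0) fragments. The first lay inside the control peak chr1:20090198-20090790 (fold enrichment 3.41, pileup 29, 19.4 to 41.6), and the second, of 926 bp, began 100 bp past that peak and overlapped no control peak. The other control peak, chr1:20211370-20211668 in intron 56 (fold enrichment 3.78), had no Setd2-KO peak near it.

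The intron 63 stretch of Pkhd1 was repeated sequence. Masked repeat bases in the reference made up 100% and 94.3% of its Setd2-KO peaks and 100% of its control peak, whereas at least 90% of the bases were masked in 2.09% of all Setd2-KO and 1.65% of all control peaks. Of the 32-base words in these peaks, 15.6% and 46.8% in the Setd2-KO peaks and 16.5% in the control peak occurred once in the genome, and 1 word of the first Setd2-KO peak occurred 7709 times. The sources used here do not say how reads that match several places were treated, so reads under these peaks need not come from Pkhd1, and their part in the result was not tested. Without these 3 peaks, Pkhd1 had 0 bp under Setd2-KO and 299 bp under control peaks, and 2 of the 7 genes, Pkd1 and Pkd2, had a Setd2-KO peak. In the other genes at least 72.2% of the words of every peak occurred once, and in most control peaks outside Pkhd1 all of them did.

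**Figure D2:**
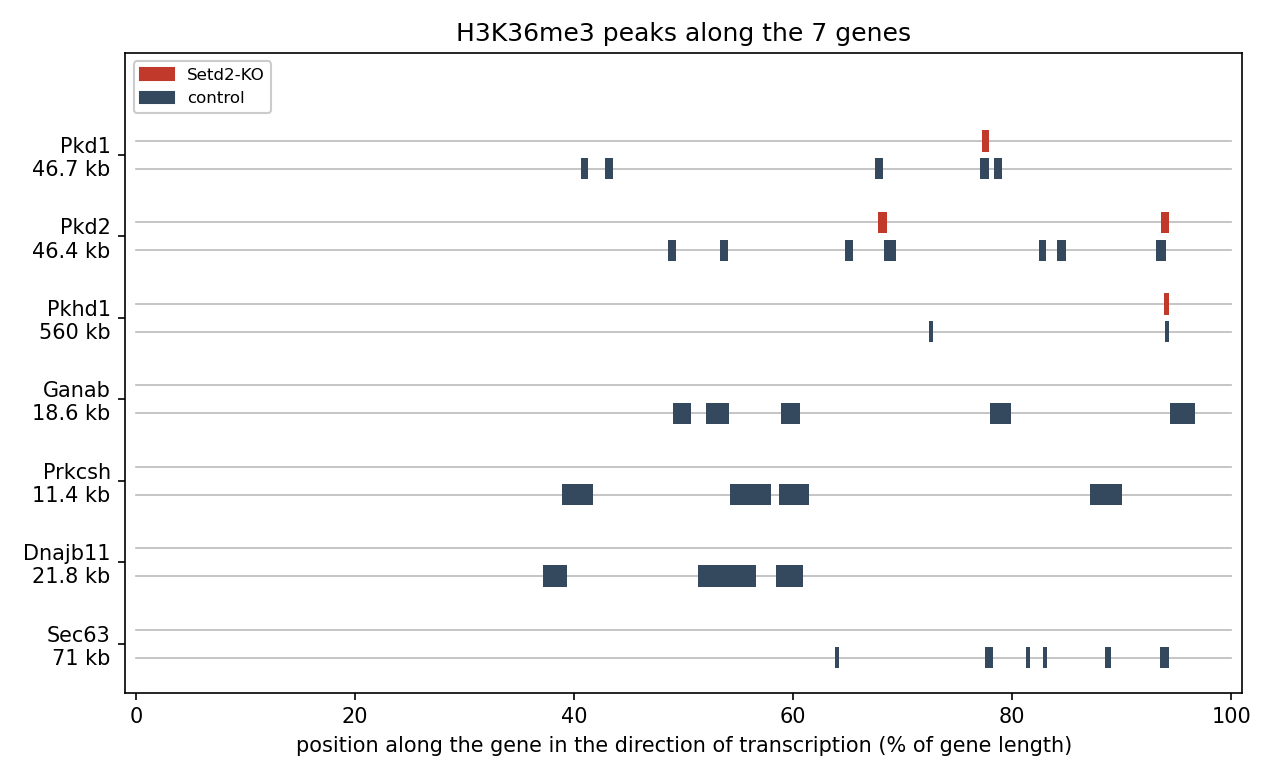
H3K36me3 peaks along the 7 genes, from the start of each gene (0%) to its end (100%), with Setd2-KO peaks on the upper and control peaks on the lower line of a gene and box widths to scale, except that narrow boxes are drawn at a minimum width. The 2 Setd2-KO peaks of Pkhd1 lie side by side and appear as 1 box, and the first part of every gene is empty in both lists.

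The glucosidase II genes had peaks in control PTECs only. Ganab (chr19:8898071-8916672, plus strand, 25 exons) carried 0 Setd2-KO peaks and 5 control peaks over 1791 bp, 9.63% of the gene. The strongest lay over exon 18 (chr19:8912579-8912932) with a fold enrichment of 4.62 and a pileup of 34 (23.5 to 47.5), and the last lay in the final exon, with 98 coding and 332 untranslated bases. All 5 touched an exon, and exonic bases made up 55.6% of the bases under control peaks, beside 29.3% of the gene. Prkcsh (chr9:22002806-22014222, plus strand, 18 exons), the shortest of the genes, carried 0 Setd2-KO peaks and 4 control peaks over 1401 bp, 12.3% of the gene and the largest share among the 7. Its strongest control peak, chr9:22007246-22007573 in intron 6, had a fold enrichment of 4.48 and a pileup of 33 (22.7 to 46.3). Unlike in Ganab, most Prkcsh peaks were intronic in the transcript used, and 29.9% of the bases under control peaks were exonic in any transcript, beside 37.4% of the gene.

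Dnajb11 held the strongest and longest peak of the 7 genes, and it was called in control PTECs only. Dnajb11 (chr16:22857845-22879634, plus strand, 11 exons) carried 0 Setd2-KO peaks and 3 control peaks over 2144 bp, 9.84% of the gene. The control peak chr16:22869022-22870172, of 1151 bp, spanned exons 6 and 7 with its summit in intron 7, a fold enrichment of 5.80 and a pileup of 43 (31.1 to 57.9). Its neighbours had fold enrichments of 3.97 (chr16:22865950-22866409, intron 3) and 2.89 (chr16:22870574-22871106, exons 8 and 9). The local background under the last of these was 10.4 fragments, the highest under any of the 37 peaks.

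Sec63 (chr10:42761496-42832514, plus strand, 21 exons) carried 0 Setd2-KO peaks and 6 control peaks over 2432 bp, 3.42% of the gene. The peaks lay between 64.0% and 93.9% of the gene length, a later first peak than in any other of the genes but Pkhd1. The highest fold enrichment, 4.75 with a pileup of 35 (24.4 to 48.7), belonged to chr10:42820283-42820595 in intron 18, where the annotation also places the ribozyme gene Gm26464. The longest, chr10:42827862-42828497 at exon 20, had the highest pileup of all 37 peaks, 46 (33.7 to 61.4), over a local background of 9.54 and a fold enrichment of 4.46. Exonic bases were 4.32% of those under control peaks, beside 12.4% of the gene.

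The centres of the strongest control peaks without a Setd2-KO partner are shown for comparison with the stretches that were called in both lists. Each line gives 201 bases of GRCm38 around the summit on the strand of the gene, with exon bases in capitals.
Dnajb11 control peak, chr16:22869807-22870007, plus strand: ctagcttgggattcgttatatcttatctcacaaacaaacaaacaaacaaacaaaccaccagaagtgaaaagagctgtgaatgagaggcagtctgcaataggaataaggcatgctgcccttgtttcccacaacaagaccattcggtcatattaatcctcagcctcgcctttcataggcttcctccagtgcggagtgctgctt
Pkd1 control peak, chr17:24581393-24581593, plus strand: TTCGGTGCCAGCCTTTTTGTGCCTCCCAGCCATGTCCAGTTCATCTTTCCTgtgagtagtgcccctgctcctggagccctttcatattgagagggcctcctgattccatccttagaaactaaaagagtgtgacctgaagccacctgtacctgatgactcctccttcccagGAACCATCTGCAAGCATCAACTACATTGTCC
The Dnajb11 summit lay wholly in an intron, and the Pkd1 summit lay in the short intron between exons 25 and 26, which appear at either end. GC made up 60.2% of the Pkd1 Setd2-KO window, 40.3% and 42.3% of the Pkd2 windows and 35.8% of the first Pkhd1 window, whose peaks overlapped control peaks. It made up 58.2% of the second Pkhd1 window. In the Dnajb11 and Pkd1 windows called in control PTECs only it was 44.8% and 51.2%. Over whole peaks, the median GC content of the 7 genes was 38.8% in the 5 Setd2-KO and 47.7% in the 32 control peaks, beside 45.3% and 46.7% of all peaks.

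The strongest control peaks of the 7 genes were not those with a partner in Setd2-KO PTECs. The 4 control peaks that overlapped a Setd2-KO peak had fold enrichments of 3.41 to 3.83 (median 3.63), and the 28 others of 2.79 to 5.80 (median 3.70). These 4 were 12.5% of the 32 (95% exact interval 3.51 to 29.0), near the 12.9% of all control peaks that overlapped a Setd2-KO peak. Of the 8 control peaks with a fold enrichment of at least 4, 0 were shared (interval 0 to 36.9%), whereas 21.3% of all control peaks of that strength were, a value inside the interval. In the other direction 4 of the 5 Setd2-KO peaks overlapped a control peak (interval 28.4 to 99.5%), beside 61.3% of all Setd2-KO peaks. These intervals treat peaks as independent, although they lie in 7 genes. Whether the sharing differs from that of the whole lists was therefore not tested.

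**Figure D3:**
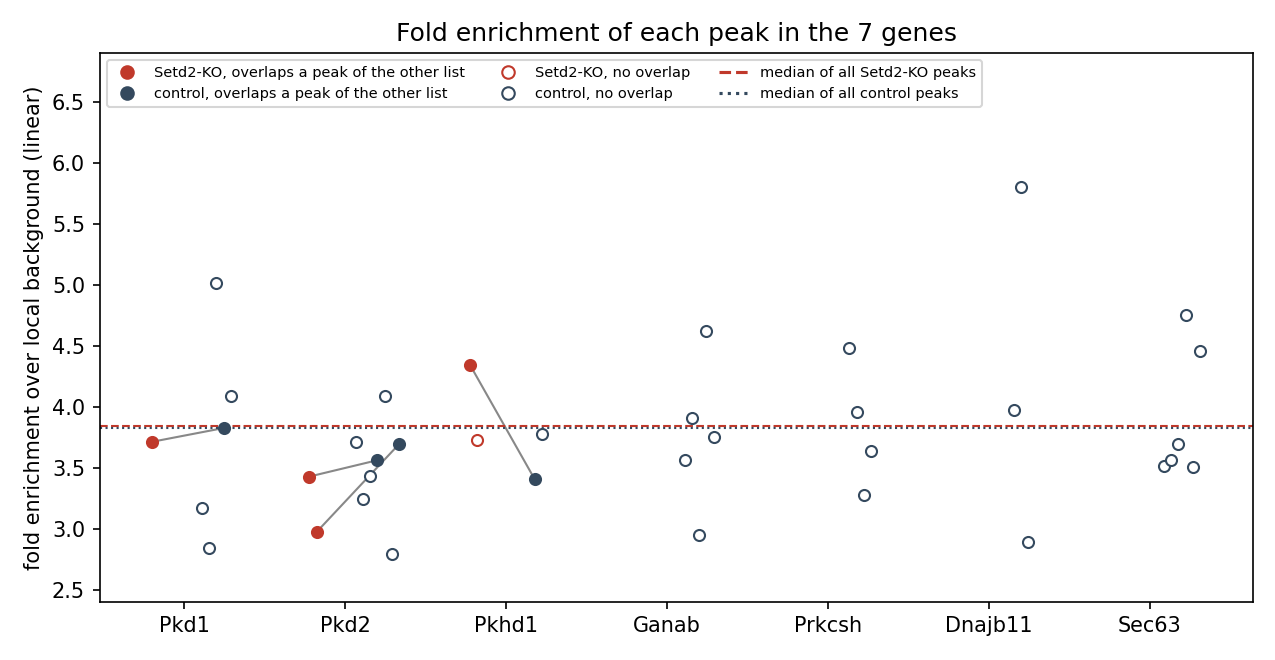
Fold enrichment over local background of each of the 5 Setd2-KO peaks (left, red) and 32 control peaks (right, dark) of the 7 genes, with filled points for peaks that overlap a peak of the other list and grey lines joining the overlapping pairs. The dashed and dotted lines give the median of all Setd2-KO (3.85) and all control peaks (3.83), and the highest control points, in Dnajb11 (5.80) and Pkd1 (5.01), are not joined.

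The strength of these peaks was close to that of the whole lists. Their median fold enrichment was 3.71 in Setd2-KO and 3.69 in control PTECs, beside 3.85 and 3.83 over all peaks, and 25% of their control peaks (interval 11.5 to 43.4) reached a fold enrichment of 4, beside 34.7% of all control peaks. The median Setd2-KO peak was 322 bp long and the median control peak 353 bp, beside 380 and 413 bp over all peaks. By bases under control peaks the genes stood between the 49.4th percentile (Pkhd1) and the 85.5th (Pkd2) of the genes with a control peak. Set against gene length the order was Prkcsh, Dnajb11, Ganab, Pkd2, Pkd1, Sec63 and Pkhd1, and without replicates it cannot be said which neighbours in it differ.

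No peak of either list lay next to a gene start. With each gene divided into 5 equal parts, the parts held, in order of transcription, 0, 0, 0, 2 and 3 Setd2-KO peaks and 0, 1, 11, 10 and 10 control peaks. Over all pairs of a control peak and a protein-coding gene of at least 10 kb, the parts held 5.01%, 12.7%, 19.1%, 27.1% and 36.1%. Each of these lay inside the interval of the 7 genes (0 to 10.9%, 0.0791 to 16.2%, 18.6 to 53.2% and 16.1 to 50.01% for each of the last 2). For pairs with a Setd2-KO peak the parts held 5.05%, 13.1%, 18.5%, 27.8% and 35.6%. The nearest control peak began 4.44 kb (Prkcsh) to 406 kb (Pkhd1) from the gene start, with a median of 18.96 kb. The intervals treat the 32 control peaks as independent, although they lie in 7 genes of 1 library. Whether their lean toward the gene end differs from that over all genes of at least 10 kb was therefore not tested. Introns held the midpoints of 4 of 5 Setd2-KO and 24 of 32 control peaks, and an exon of the transcript was touched by 1 and 15 of them. More exonic bases under control peaks than in the gene at large were found in 3 of 7 genes (Pkd1, Ganab and Dnajb11), beside 60.9% of the genes with a control peak.

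The neighbours of the 7 genes were mostly unmarked, as protein-coding genes in general were. Of all protein-coding genes 7.37% carried a Setd2-KO and 19.5% a control peak, so nothing particular to these neighbours is read from this. Of the 14 nearest protein-coding genes on either side, Rab26, Tsc2, Spp1, Tfap2b, Il17a, Ints5, B3gat3, Ccdc151, Elavl3, Ahsg, Ostm1 and Scml4 carried 0 peaks in both lists. The exceptions were BC005561 beside Pkd2 and Tbccd1 beside Dnajb11, the second with 0 Setd2-KO peaks and 1 control peak of 290 bp. Ints5 and Ccdc151, which lie only 182 and 171 bp from Ganab and Prkcsh, were among the unmarked.

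By gene length and bases under Setd2-KO and control peaks together, the gene outside all lists most like each of the 7 was Med23 for Pkd1 (289 bp under Setd2-KO and 1737 bp under control peaks), Morc3 for Pkd2 (661 and 2340 bp), Prpf4 for Ganab (0 and 1792 bp), Ctsl for Prkcsh (0 and 1407 bp), Zkscan1 for Dnajb11 (0 and 2071 bp) and Scfd1 for Sec63 (0 and 2333 bp). Their distances on the log10 scale over 3 values of 1 library per genotype were 0.00542 to 0.0565. Pkhd1 had no close match, and the nearest, Rasgef1b (686 and 1098 bp), stood at 0.245.

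Genes that share the pathways of the 7 were then counted from 7 lists of 127 distinct genes, chosen with earlier results of these data known. Of these genes 19 carried a Setd2-KO and 57 a control peak. Shares in brackets below stand beside 7.37% of all protein-coding genes with a Setd2-KO and 19.5% with a control peak. Of 20 other cystic kidney disease genes, 6 carried a Setd2-KO and 10 a control peak (30% and 50%). Tsc1, which encodes hamartin, had 378 bp under Setd2-KO and 2360 bp under control peaks, and Lrp5, a Wnt co-receptor gene, 553 and 625 bp. Bicc1 (373 bp) and Glis3 (323 bp), named after their values were seen, had a Setd2-KO peak and 0 control peaks. How often the words under a peak occur in the genome was counted for the 7 genes only. It was not counted for any gene of the pathway lists. Of the 7 paralogs of the polycystins and fibrocystin, 0 carried a Setd2-KO peak and 2 a control peak (0% and 28.6%). The 2 were Pkd1l3 with 402 bp and Pkd2l2 with 311 bp.

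The lists for ER folding and ER translocation had the largest shares of genes with control peaks among the 7 lists. Nothing is read from that order, because the lists were chosen with earlier results of these data known. In ER glycoprotein folding and quality control, the pathway of Ganab, Prkcsh and Dnajb11, 8 of 25 genes carried a Setd2-KO and 18 a control peak (32% and 72%). P4hb, a protein disulfide isomerase, had 0 bp under Setd2-KO and 4498 bp under control peaks, Uggt1, the folding sensor that re-glucosylates what glucosidase II has trimmed, 314 and 3351 bp, and Hsp90b1, the ER Hsp90 chaperone, 697 and 3160 bp. Canx, the lectin chaperone calnexin, had 1120 and 1706 bp, and Hspa5, which encodes BiP, the partner of DNAJB11, 525 and 1258 bp. Some partners of the 4 ER genes were thus among the genes with a Setd2-KO peak, while the 4 themselves had none. Most genes of this list had none either, and 34.5% of all genes with a control peak had one. Nothing is therefore read from the contrast.

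In ER translocation, 2 of 16 genes carried a Setd2-KO and 9 a control peak (12.5% and 56.25%). Sec61a1, the channel subunit and itself a cystic disease gene, had 637 bp under Setd2-KO and 2727 bp under control peaks, Srpr, the signal recognition particle receptor gene, 0 and 1996 bp, and Sec62, the channel partner of Sec63, 323 and 1239 bp. In N-glycan assembly and transfer the counts were 1 and 9 of 22 genes (4.55% and 40.9%), the first below the share of all protein-coding genes. Stt3a, a catalytic subunit of oligosaccharyltransferase, had 294 and 1846 bp. Rpn1, a further subunit, had 0 and 1307 bp, and Dpagt1, the first enzyme of the pathway, 0 and 775 bp. These counts share genes between lists, since Sec61a1, Ift140, Alg5 and others stand in more than 1.

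Among the cilium genes fewer were called in Setd2-KO PTECs than among the ER folding genes, with no test of the difference. Of 22 genes of intraflagellar transport and ciliary motors, 2 carried a Setd2-KO and 9 a control peak (9.09% and 40.9%). The first of these shares was near that of all protein-coding genes. The retrograde motor gene Dync2h1 had 298 bp under Setd2-KO and 1341 bp under control peaks, the kinesin gene Kif3b 0 and 1341 bp, Ift140 0 and 1206 bp, and Ift52 295 and 1168 bp. Of 23 nephronophthisis and Bardet-Biedl genes, 1 carried a Setd2-KO peak, Bbs7 with 327 bp and 0 control peaks, and 5 a control peak, led by Cc2d2a (1283 bp), Mkks (1004 bp) and Glis2 (928 bp). Beside the 7.37% and 19.5% of all protein-coding genes, the nephronophthisis list was near the background in both genotypes, at 4.35% and 21.7%.

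**Figure D4:**
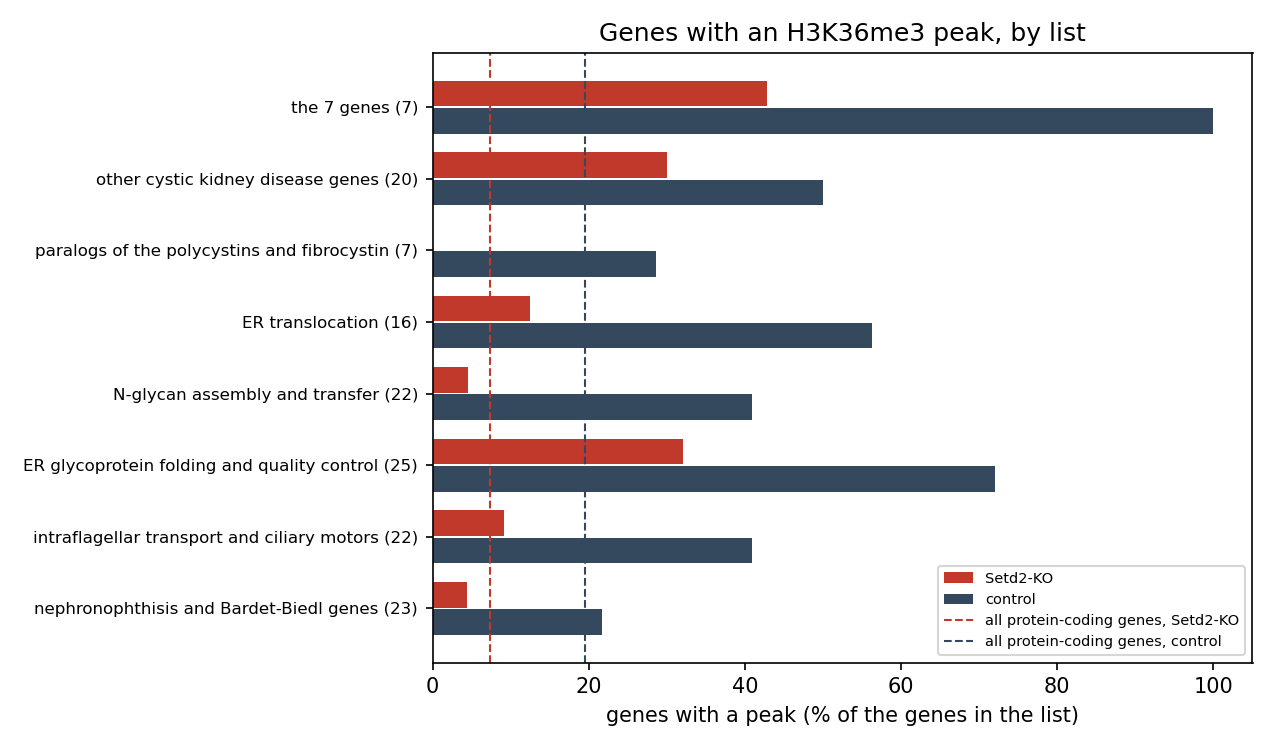
Share of genes with an H3K36me3 peak in the 7 genes and in each pathway list (number of genes in brackets), with the Setd2-KO bar above the control bar and dashed lines at the shares of all protein-coding genes (7.37% and 19.5%). The 7 genes, at 100% in control PTECs, were listed with their peaks known, and the other lists were also chosen with earlier results of these data known. Among those lists ER folding has the highest shares (32% and 72%), from which nothing is read.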

How the data were processed

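H3K36me3 peak lists of 1 Setd2-KO and 1 control ChIP library, each called against its own input, were used, grouped by sample label. The submitters' processing notes name cutadapt 1.9.1, Trimmomatic 0.35 and FastQC for trimming and read quality, Bowtie2 2.2.6 for mapping to GRCm38 (mm10) and MACS2 2.1.1 for peaks. The deposited lists hold positions in bases as the authors' peak caller wrote them. The deposited pileup is a signal, the extended fragments stacked over a summit, not normalised between libraries. The deposited fold enrichment is that pileup over the local background, with a pseudocount of 1 added to each. The deposited -log10 p and -log10 q compare ChIP with input within 1 library. The methods name more than 1 filter, and which of them gave these lists is unclear. Fold enrichments go down to 1.20 in the Setd2-KO and 1.52 in the control list. Both are below the limit named in the reporting summary, so that limit was not applied to the deposited fold enrichment. Read totals were not used here.

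Genes and exons came from GENCODE M21, and the 21911 protein-coding genes on assembled nuclear chromosomes, 1 per symbol, were used. Exon and intron numbers follow the protein-coding transcript with the most coding bases, and exonic shares use every transcript. An overlap of 1 bp made a pair of peaks shared, and a peak's place was that of its midpoint. Local background was recovered from pileup and fold enrichment. Intervals are exact binomial for shares and exact Poisson for pileups, at 95%. Repeat masking, GC content, 32-base words (counted on both strands of chromosomes 1 to 19, X and Y) and printed sequences came from the RefSeq copy of GRCm38.p6. Python 3.11.15, pandas 2.3.3, NumPy 2.4.6, SciPy 1.17.1 and matplotlib 3.10.9 were used, and the overlap code was tested on simulated data.

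The 7 genes and the 7 pathway lists were chosen with earlier results of these data known. Genes were named by a rule: the 7 genes, Setd2, the nearest protein-coding gene on each side, of each pathway list up to 3 genes with the most bases under control and up to 3 with the most under Setd2-KO peaks, and for each of the 7 the nearest gene by Euclidean distance of log10(x + 100) of gene length and bases under the peaks of each genotype. All 127 listed symbols matched the annotation. A gene that the rule names is not reported here. Alternatives were a fold enrichment of at least 4, a -log10 q of at least 5, midpoint or summit in the gene, at least 2 peaks, gene bodies extended by 2 kb, peaks in other coding genes left out, sharing over 50% of the control peak or within 1 kb, and another transcript or the summit for position. After the data were seen, 2 more were added: the control list cut to the 2732 peaks of highest -log10 q, and peaks in which under 50% of the words occur once left out.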

Additional observations from a re-analysis of the deposited data

How the results depend on the processing

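No paired analysis was possible because each genotype had 1 ChIP library. With a fold enrichment of at least 4, 1 gene had a Setd2-KO peak, 0 had peaks in both lists, and peaks covered 300 bp of the 7 genes in Setd2-KO cells and 3755 bp in control cells. Under the same limit on both lists, 7 pathway genes carried a Setd2-KO and 31 a control peak. With the limit on control peaks alone, 0% of them were shared. With the control list cut to the size of the Setd2-KO list, an alternative chosen after seeing the data, 1 gene had peaks in both lists, control bases were 3123 bp, 0% of control peaks were shared (against 29.5% in the whole cut list), and Pkd2 turned round, with 690 bp more under Setd2-KO peaks. This cut applies to the control list only. A -log10 q of at least 5 in both lists left Pkd2 at -1916 bp Setd2-KO minus control. That limit asked more of Setd2-KO peaks, since the q value is adjusted within each list. With peaks in repeated sequence left out, also chosen after seeing the data, Setd2-KO bases were 979 bp and Pkhd1 turned round, at -299 bp Setd2-KO minus control. In the longest coding transcripts 21.5% of control bases were exonic, against 25.5% over all transcripts. Across all alternatives, 41 other summary values stayed within 1.5 times (shares, within the 95% interval). Of values for single genes and lists, 44 did, 24 did not, and the 2 named above turned round. Some of the unchanged values could not have moved, such as the Setd2-KO bases when only the control list was cut. Pkd1 had fewer Setd2-KO than control bases under each alternative run, though only 289 against 341 bp with the cut control list. Ganab, Prkcsh, Dnajb11 and Sec63 did too, but they had 0 Setd2-KO bases at the start. An alternative that only removes peaks could not turn these genes round, so nothing is read from that. Without replicates, none of these values measures variation between animals.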
